A study of Mus musculus with 2 samples.

Results

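Complement genes were followed through the cell classes of macrophage-enriched mouse spleen. The members were chosen by gene symbol, as the rows of the deposited count matrices named C1qa, C1qb, C1qc, C3, C3ar1, C5ar1, Cfp or Vsig4, and all 8 were found among the 26124 genes. Spleen cells bound by anti-F4/80 antibody on magnetic beads were sequenced in 2 droplet libraries of 1 untreated mouse each, aged 12 to 16 weeks, so there is 1 library per condition and no spread between animals. Both mice were homozygous for Hbatm1Paz, a deletion of the mouse α-globin genes, and both carried Tg(HBA-HBBs)41Paz, a human globin transgene with the sickle β-chain. The control mouse, labelled wild-type, was heterozygous for Hbbtm1Tow (a deletion of the mouse β-globin genes), hemizygous for the transgene and non-sickling. The SCD mouse was homozygous for Hbbtm1Tow, homozygous for the transgene and sickling. The wild-type label therefore stands for a carrier and not for an unmodified mouse.

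C1q is the recognition molecule of the classical complement pathway. Its 3 chains, encoded by C1qa, C1qb and C1qc, assemble into one protein that binds antibody complexes and dying cells, and tissue macrophages are its main source. C3 is the central component, whose fragments coat targets, and properdin, encoded by Cfp, stabilises the alternative-pathway enzyme that cleaves C3. C3ar1 and C5ar1 encode the receptors for the small fragments C3a and C5a, and Vsig4 encodes a macrophage receptor for C3b. Red pulp macrophages (RPM) clear senescent red cells from the blood and recycle their iron, and erythroblastic islands (EBI) are macrophages with attached red cell precursors.

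The 3 C1q genes lie side by side on the minus strand of chromosome 4 (GRCm38, GENCODE M21): C1qb at chr4:136880129-136886187, C1qc at chr4:136889804-136893065 and C1qa at chr4:136895917-136898803, which spans 18675 bases in all. The gap between C1qb and C1qc is 3616 bases and that between C1qc and C1qa is 2851 bases. The other members are scattered, with C3 on chromosome 17, C3ar1 on chromosome 6, C5ar1 on chromosome 7, and Cfp and Vsig4 on chromosome X. The 250 bases before the start site are shown for C1qb and C1qc, whose levels followed each other across the cell classes, for Vsig4, and for C3, which had a different pattern (RefSeq, GRCm38.p6, minus strand, 5′ to 3′). The start sites are those of RefSeq. For C1qc this start lies inside the GENCODE span given above, so part of the bases shown falls within that span. Capitals mark GAGGAA or its reverse complement, the purine-rich box read by the macrophage factors PU.1 and SpiC, in C1qb, C1qc and Vsig4, and TTGCG, a half-site of the C/EBP factors, in C3.
C1qb, chr4:136886201-136886450: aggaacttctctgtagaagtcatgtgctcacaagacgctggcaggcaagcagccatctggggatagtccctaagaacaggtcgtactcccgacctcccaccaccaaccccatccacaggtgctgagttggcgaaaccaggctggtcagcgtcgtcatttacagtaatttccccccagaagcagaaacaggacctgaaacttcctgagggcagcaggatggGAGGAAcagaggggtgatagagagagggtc
C1qc, chr4:136892915-136893164: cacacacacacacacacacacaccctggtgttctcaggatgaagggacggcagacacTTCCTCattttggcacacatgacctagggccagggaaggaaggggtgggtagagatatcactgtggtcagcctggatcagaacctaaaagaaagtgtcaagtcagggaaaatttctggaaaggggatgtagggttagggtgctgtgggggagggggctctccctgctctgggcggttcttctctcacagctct
Vsig4, chrX:96293439-96293688: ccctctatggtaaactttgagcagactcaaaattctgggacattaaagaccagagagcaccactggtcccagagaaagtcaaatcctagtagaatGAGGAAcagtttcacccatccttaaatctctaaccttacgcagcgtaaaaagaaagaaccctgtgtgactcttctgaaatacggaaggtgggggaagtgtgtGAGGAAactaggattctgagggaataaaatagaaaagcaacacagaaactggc
C3, chr17:57228137-57228386: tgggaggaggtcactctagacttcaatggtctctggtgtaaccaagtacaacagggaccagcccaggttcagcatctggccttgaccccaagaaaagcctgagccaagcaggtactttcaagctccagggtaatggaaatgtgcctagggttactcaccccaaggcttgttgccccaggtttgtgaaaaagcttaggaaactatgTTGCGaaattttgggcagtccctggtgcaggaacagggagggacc
In the whole RefSeq window, which adds 50 bases after the start to make 300, 7 of the 8 members had an entry. GAGGAA on either strand was in 4 of these 7 (C1qb, C1qc, Cfp and Vsig4) and in 28.3% of 27025 promoters of the same length. TTGCG was in C3 alone of the 7 and in 17.5% of all promoters. The MAF half-site TGCTGAC was in 0 of the 7 and in 4.58% of all promoters, and the NRF2 core TGACNNNGC was in C1qb and Cfp and in 12.5% of all promoters. Single short matches of this kind are a description of the letters and were not tested as binding sites.

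After filtering, 19418 cells of the wild-type-labelled and 12279 of the SCD-labelled library were kept, with a median of 4115 and 4571 UMIs, the tagged RNA molecules counted in a cell. Levels are UMIs summed over the cells of a class over all UMIs of that class and scaled to 1000000 (CPM), with 95% exact intervals in parentheses that cover counting error only, and with a single library for each label the libraries could not be compared by a test. The mouse β-globin genes went against the labels, since a mouse homozygous for their deletion should lack them. Hbb-bs was at 154.3 CPM in erythroid-like cells of the wild-type-labelled library and at 47240 CPM in those of the SCD-labelled library, and Hbb-bt at 295.1 and 15970 CPM. The libraries are therefore named by their labels throughout, and every direction between them rests on those labels. The mouse α-globin genes were also read, although both mice were described as homozygous for their deletion. Hba-a1 and Hba-a2 were among the leading genes of an EBI-like cluster of 1154 wild-type-labelled and 26 SCD-labelled cells. The libraries shared 107 cell barcodes, 65 of them among kept cells. Macrophage-like cells were split by library. Of the 3 RPM-like clusters, those led by Abcc5 and by Marco held 1122 and 3538 wild-type-labelled cells against 11 and 42 SCD-labelled ones, and the one led by Rgs1 and Adamdec1 held 51 against 1609. The RPM-like name rests on 8 RPM markers (Spic, Vcam1, Adgre1, Mertk, Cd5l, Cd163, Itgad and Axl), so their detection in these cells is no separate support for it. All 8 were also detected in cells of other classes. Their levels in RPM-like cells differed between the libraries in both directions. Cd5l was at 3103 CPM in the wild-type-labelled and 549.5 CPM in the SCD-labelled library, and Spic at 1025 and 1675 CPM. The members and the other complement genes were kept out of the clustering, so the classes were not drawn on them. Free RNA from broken cells enters every droplet, and its level was read from the main B lymphocyte-like cluster, called the B cell reference (543 and 1734 cells, median 2219 and 2896 UMIs).

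C1q RNA was highest in RPM-like cells of both libraries. The 3 chains together were at 7175 (7134 to 7215) CPM in 4711 RPM-like cells of the wild-type-labelled library and at 6622 (6564 to 6680) CPM in 1662 of the SCD-labelled library, with median depths of 2136 and 4054 UMIs. EBI-like cells came next, with 4943 CPM in 6146 cells and 4164 CPM in 930 cells. Both values were well above the B cell reference, where the chains were at 1088 (1035 to 1143) and 629.2 (609.2 to 649.8) CPM. The EBI-like class pooled unlike clusters. A cluster of 776 wild-type-labelled and 0 SCD-labelled cells was led by Slc7a8, Cd5l and Lpl. Its RPM markers were at 7.42 times and its erythroid markers at 4.79 times the reference. In another EBI-like cluster, of 1329 and 90 cells, 43.8% were marked as doublets. Without the cells marked as doublets the EBI-like class was at 5351 and 4453 CPM. Over the 18 groups of cells the lowest, median and highest level were 559.1, 2047 and 7175 CPM in the wild-type-labelled library and 194.4, 898.1 and 6622 CPM in the SCD-labelled library. Neighbours in the order of levels had overlapping intervals in 6 of 17 steps in the former and in 9 of 17 in the latter, all of them below the macrophage classes. Ly6c-low and Ccr7-positive cells of the wild-type-labelled library were such a pair, at 2914 (2839 to 2991) and 2807 (2733 to 2881) CPM. Of the C1q UMIs in kept cells, the RPM-like class held 29.4% and 40.2%, and EBI-like cells held 42% and 13.6%. A cluster led by Ffar2 and sharing its leading genes with cDC2-like cells, which was left unnamed, held C1q at 3709 and 3854 CPM, its RPM markers were at 4.04 and 6.54 times the B cell reference, and 14.8% and 60.9% of its cells were marked as doublets.

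**Figure D1:**
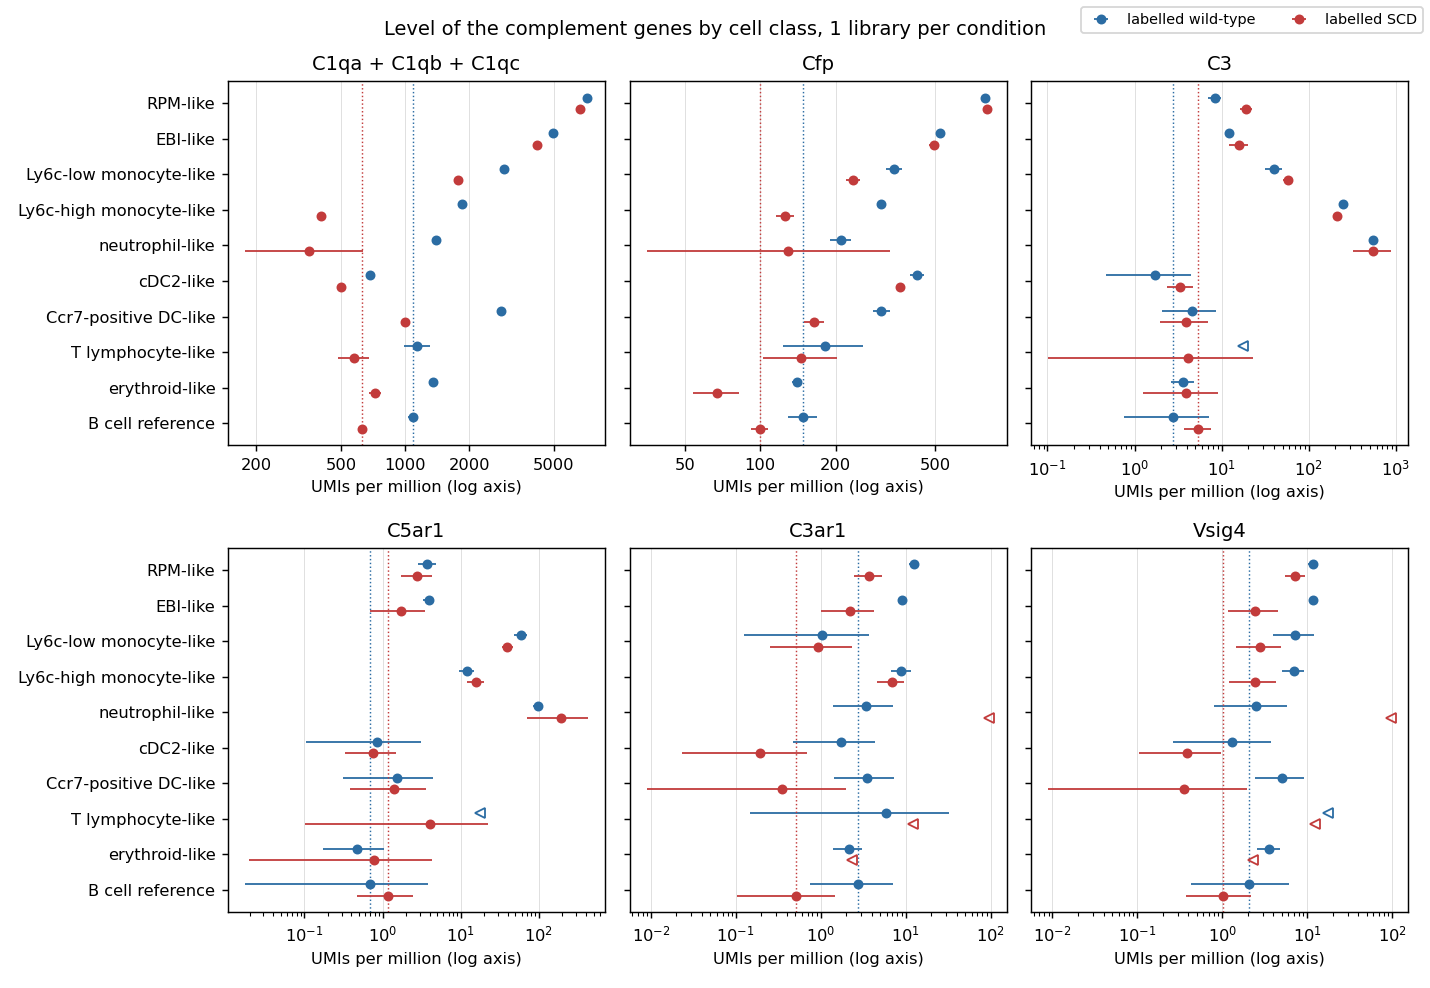
Level of the complement genes in CPM (log axis) in 10 cell classes, with points for the wild-type-labelled (blue) and SCD-labelled (red) library and 95% exact Poisson intervals, 1 library each; dotted lines give the B cell reference of each library and open triangles the level that a count of 0 allows. C1q and Cfp peak in RPM-like cells, C3 in neutrophil-like cells at 545.1 and 549.1 CPM, and C5ar1 in neutrophil-like and Ly6c-low monocyte-like cells. The SCD-labelled neutrophil-like points rest on 12 cells.

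Each chain followed the sum. For C1qa, RPM-like cells held 4012 and 3436 CPM against 646.7 and 325.2 CPM in the B cell reference. C1qb was at 1380 and 1037 CPM against 194.6 and 92.7 CPM, and C1qc at 1782 and 2149 CPM against 246.5 and 211.3 CPM. Summed C1q thus lay 6.60-fold (6.28 to 6.94) above the B cell reference in the wild-type-labelled library and 10.5-fold (10.2 to 10.9) in the SCD-labelled library. The difference between these folds came with a lower reference level in the SCD-labelled library. The folds depend on the background chosen. Barcodes with fewer than 500 genes held C1q above the reference, at 2522 and 1156 CPM. In cDC2-like cells it was below the reference, at 687.3 and 499.9 CPM. After each cell was thinned to 1000 UMIs, which left out 683 and 163 shallower RPM-like cells, at least 1 C1q chain was seen in 99.6% (99.4 to 99.8) and 98.5% (97.7 to 99.02) of RPM-like cells, and all 3 chains in 57.2% and 49.5%. In the B cell reference at least 1 chain was seen in 54.8% and 38.2% of thinned cells and all 3 chains in 2.61% and 1.17%. A single C1q UMI in a droplet thus did not mark a cell class, whereas the level in CPM and the presence of all 3 chains set RPM-like cells apart from the reference. In the reference, the 10% of thinned cells with the most C1q UMIs held 40.1% and 49.3% of these UMIs. Whether all of the reference level is free RNA was not tested. Within RPM-like cells C1q moved less with depth than it did between cell classes. From the shallowest to the deepest cells, in 3 groups of equal size, it was at 6847, 7398 and 7155 CPM in the wild-type-labelled library and at 5381, 6813 and 6767 CPM in the SCD-labelled library.

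Outside the macrophage classes C1q followed the RNA of red pulp macrophages. In each class with at least 50 cells the fold of C1q over the B cell reference was divided by the median fold of the 8 RPM markers in the same cells. The quotient ranged from 0.802 to 1 over 32 combinations of class and library, the RPM-like and EBI-like classes included, with a median of 0.883. In RPM-like cells the markers were at 8.04 and 11.8 times the reference, beside the C1q folds above. Ly6c-low monocyte-like cells, which patrol the vessel wall, had C1q at 2.68-fold (2.53 to 2.84) and 2.81-fold (2.70 to 2.92) over the reference, and their RPM markers were at 3.23 and 3.11 times the reference, with 8 of 8 at least 2-fold in both libraries. The summed marker level in these cells was 6655 and 3934 CPM against 2090 and 1238 CPM in the reference, with no marker at 0. With each library clustered alone, the log2 fold of C1q over the reference in the SCD-labelled Ly6c-low cells was 0.59 in place of 1.49. The part of macrophage RNA in their C1q was not tested. Ly6c-high monocyte-like cells had C1q at 1.71-fold in the wild-type-labelled library and at 0.643-fold in the SCD-labelled library, with their RPM markers at 2.13 and 0.726 times the reference. Without the cells marked as doublets the C1q folds were 1.297 and 0.684. The wild-type-labelled level, 1859 CPM, was then 1411 CPM, and it was 2399 CPM with all genes in the clustering. The SCD-labelled value depended on the clustering as well: C1q there was at 404.4 CPM, and at 1002 CPM with total-count scaling, 1020 CPM at Leiden resolution 2, 870.6 CPM with all genes in the clustering and 791.4 CPM with cells of at least 200 genes. In cDC2-like cells, a class of conventional dendritic cells, C1q was at 0.632-fold (0.589 to 0.678) and 0.794-fold (0.762 to 0.829), so below the reference in both libraries, a direction that depended on the clustering: at Leiden resolution 0.5 the class was larger and its log2 fold over the reference was 1.33 and 0.65. Ccr7-positive dendritic cells stood at 2.58-fold and 1.58-fold, and without the cells marked as doublets at 2.18-fold and 0.815-fold.

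**Figure D2:**
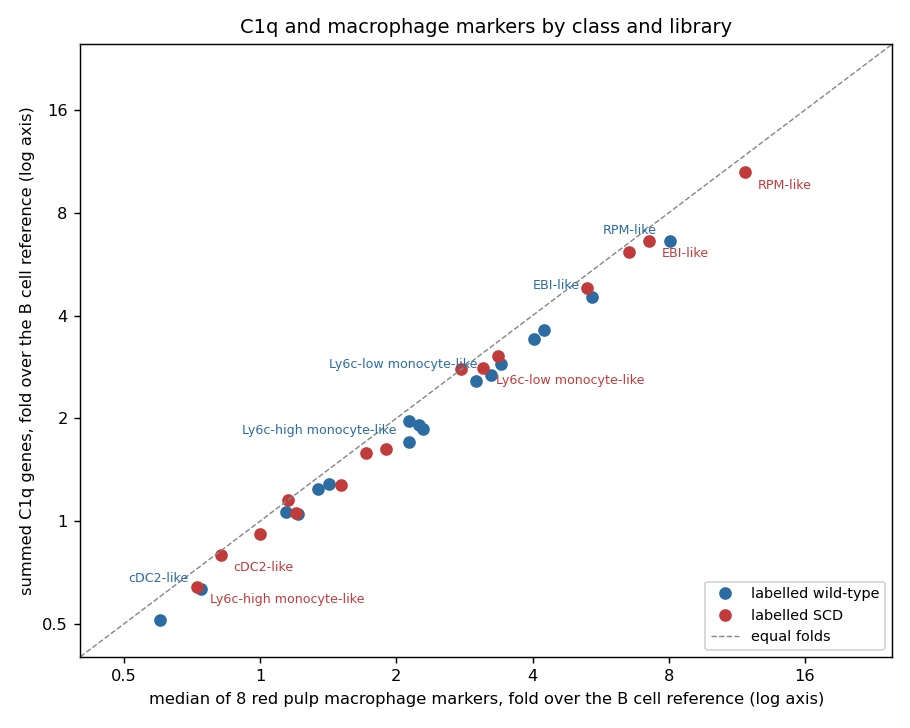
Fold of the summed C1q genes over the B cell reference (vertical, log axis) against the median fold of 8 RPM markers (horizontal, log axis) in each class with at least 50 cells, coloured by library, with 5 classes named. The C1q fold is 0.802 to 1 times the marker fold at the 32 points, near or under the dashed line of equal folds, from cDC2-like cells at 0.632 and 0.794 up to RPM-like cells at 6.60 and 10.5.

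The make-up of the C1q RNA differed between the libraries and less between the clusters of one library. C1qc contributed 24.84% (24.6 to 25.09) of the C1q UMIs of RPM-like cells in the wild-type-labelled library and 32.45% (32.04 to 32.86) in the SCD-labelled library. C1qb contributed 19.2% and 15.7%, and C1qa 55.9% and 51.9%. These are shares of 3′ tags that were not divided by transcript length, and they are compared between libraries and not between genes. Among clusters with at least 50 cells the C1qc share ran from 22.6% to 26.5% in 25 clusters of the wild-type-labelled library and from 31.7% to 35.8% in 19 clusters of the SCD-labelled library, and the ranges did not overlap. Clusters of one library share its free RNA, so they are not independent repeats of the difference. The B cell reference, at 22.7% (20.6 to 24.8) and 33.6% (32.1 to 35.1), and barcodes with fewer than 500 genes, at 24.1% and 34.6%, showed the same split. In the wild-type-labelled library, EBI-like cells were at 25.3% and Ly6c-low monocyte-like cells at 24.95%, close to its RPM-like cells. With 1 mouse per label, genotype, other genetic background and library preparation cannot be told apart as sources of the difference. How often other genes shift as far against each other was not tested. In RPM-like cells, 9.02% of the 10004 genes tested were at least 2-fold higher in the SCD-labelled library and 4.23% at least 2-fold lower.

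**Figure D3:**
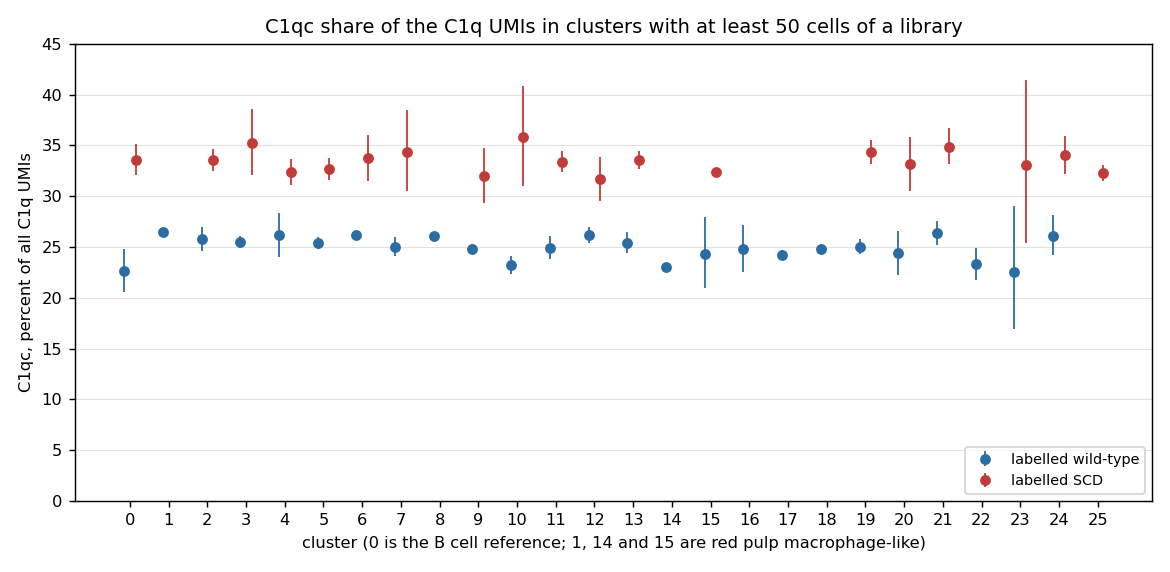
Share of C1qc among all C1q UMIs (percent) in each cluster with at least 50 cells of a library, with 95% exact binomial intervals, wild-type-labelled in blue and SCD-labelled in red. All 25 wild-type-labelled points lie between 22.6% and 26.5% and all 19 SCD-labelled points between 31.7% and 35.8%. Points of one library share its free RNA and are not independent.

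Between the libraries, C1q was lower by one measure and nearly level by the other. Over all kept cells the summed chains were at 3850 CPM in the wild-type-labelled and 1926 CPM in the SCD-labelled library, which made the SCD-labelled level differ by a log2 ratio of -0.999 (-1.01 to -0.99). In RPM-like cells this ratio was -0.12 (-0.13 to -0.10), and in EBI-like cells -0.25 (-0.27 to -0.22). With both macrophage classes taken as one the sign turned, to 0.02 (0.01 to 0.04). Of the RPM-like clusters, the one led by Rgs1 held over 50 cells of both libraries, and its C1q was at 6278 and 6657 CPM, which gave a log2 ratio of 0.08 (-0.03 to 0.20). The cells behind the 2 RPM-like levels thus came almost wholly from different clusters. EBI-like cells were split as well, since 628 of the 930 SCD-labelled ones lay in a cluster with 13 wild-type-labelled cells. The EBI-like ratio therefore also compares largely different clusters. The share of macrophage classes differed alongside, as RPM-like and EBI-like cells were 10857 of the 19418 wild-type-labelled and 2592 of the 12279 SCD-labelled kept cells. Whether the yield of the beads reflects the cells of the spleen was not tested. Chain by chain, RPM-like cells had a log2 ratio of -0.22 (-0.24 to -0.20) for C1qa, -0.41 (-0.45 to -0.37) for C1qb and 0.27 (0.24 to 0.30) for C1qc. C1qc alone of the chains was higher in the SCD-labelled library, and the median of all 10004 genes tested there was 0.20.

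Cfp, the gene of properdin, was also highest in RPM-like cells, and in cDC2-like cells it stood higher over the B cell reference than the RPM markers did. Its level in RPM-like cells was 790.9 (777.6 to 804.5) CPM in the wild-type-labelled and 804.6 (784.5 to 825) CPM in the SCD-labelled library. The B cell reference held 148.2 and 99.5 CPM, so the folds were 5.34 (4.66 to 6.14) and 8.09 (7.43 to 8.82). Thinned RPM-like cells held a Cfp UMI in 51.6% and 51.8% of cells, against 11.2% and 7.75% of reference cells. The log2 ratio between the libraries in RPM-like cells was 0.02 (-0.02 to 0.07), an interval that holds 0. In cDC2-like cells Cfp was at 424.5 (398.5 to 451.9) and 363.5 (352.1 to 375.3) CPM, which was 2.865-fold (2.47 to 3.34) and 3.65-fold (3.35 to 3.99) over the reference while the RPM markers in the same cells were at 0.739 and 0.818 times the reference. There were 61.8 and 72.7 Cfp UMIs for every 100 C1q UMIs in cDC2-like cells, and 11 and 12.2 in RPM-like cells. Among classes with at least 50 cells, cDC2-like cells had the highest quotient of Cfp fold to RPM-marker fold in both libraries, at 3.88 and 4.47, beside medians of 0.967 and 0.957. A cycling cluster led by Cep55, left unnamed, held Cfp at 495.2 and 436.2 CPM with its RPM markers at 1.14 and 1.20 times the reference. Its quotients were 2.93 and 3.65. Another unnamed cluster, led by Mpo, had a quotient of 3.70 in its 208 wild-type-labelled cells, with 58.8 Cfp UMIs for every 100 C1q UMIs.

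C3 had a separate pattern, with its highest levels in neutrophil-like cells, a cluster led by Mpo and Ly6c-high monocyte-like cells of both libraries. These are levels and not shares of all C3 UMIs, so a small class can rank first with few of them. Neutrophil-like cells of the wild-type-labelled library, 277 in number, held C3 at 545.1 (513.4 to 578.2) CPM, and the 12 neutrophil-like cells of the SCD-labelled library held 549.1 (319.9 to 879.2) CPM from 17 UMIs. An unnamed cluster led by Mpo, Elane and Prtn3, genes of granulocyte precursors, was at 401.6 CPM in 208 wild-type-labelled cells and at 463.6 CPM in 6 SCD-labelled cells. Ly6c-high monocyte-like cells, the inflammatory monocytes, were at 245.6 (233.8 to 257.8) and 213.3 (200.1 to 227.2) CPM in 992 and 765 cells. These levels were far above free RNA, since the B cell reference held 4 and 32 C3 UMIs, or 2.77 and 5.40 CPM. In the Ly6c-high class the fold over the reference was 88.7 (34.6 to 326) and 39.5 (27.8 to 58.1), and after thinning 20.75% and 16.9% of cells held a C3 UMI, against 0.186% and 0.408% of reference cells. A cluster led by Cd209a, in which 16.5% and 30.6% of cells were marked as doublets, was at 90.15 and 96.2 CPM, and the Ly6c-low monocyte-like class held 39.6 (31.2 to 49.4) and 58.0 (51.1 to 65.6) CPM. Among these named classes the order of C3 was thus neutrophil-like, Ly6c-high and then Ly6c-low cells in both libraries. Its first place in the SCD-labelled library rests on 12 cells, and with each library clustered alone no SCD-labelled cells were neutrophil-like. Unnamed clusters are not in this order, such as one led by Hbb-bs, at 38.9-fold and 9.24-fold over the reference. RPM-like cells held little, 8.28 (6.97 to 9.77) CPM from 140 UMIs and 19.1 (16.1 to 22.5) CPM from 145 UMIs. Their ratio between the libraries, SCD-labelled over wild-type-labelled, was 1.21 (0.86 to 1.55) on the log2 scale, and that of the B cell reference was 0.96 (-0.53 to 2.92). Over the reference C3 in RPM-like cells was at 2.99-fold (1.14 to 11.1) and 3.54-fold (2.40 to 5.37), 2 intervals that overlap.

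The receptor genes were sparse. C5ar1 was highest in neutrophil-like cells, at 96.2 (83.2 to 110.7) CPM from 195 UMIs in the wild-type-labelled library and at 193.8 (71.1 to 421.8) CPM from 6 UMIs in the SCD-labelled library. Ly6c-low monocyte-like cells followed, at 58.6 (48.3 to 70.4) and 39.5 (33.8 to 45.9) CPM from 114 and 171 UMIs. In these cells 5.83% (3.81 to 8.48) and 3.89% (2.78 to 5.28) of thinned cells held a C5ar1 UMI, against 0 of 537 and 0 of 1717 reference cells, where a count of 0 allows 3 counts, or 0.559% and 0.175%, and the exact upper limits are 0.685% and 0.215%. Ly6c-high monocyte-like cells were lower, at 12.1 (9.55 to 14.99) and 15.6 (12.2 to 19.7) CPM, and the intervals of the Ly6c-high and Ly6c-low classes did not overlap in either library. RPM-like cells were at 3.73 and 2.77 CPM from 63 and 21 UMIs, and their fold over the 1 and 7 UMIs of the reference had intervals that reached below 1. C3ar1 reached 25.6 (20.5 to 31.5) CPM in the Cd209a-led cluster of the wild-type-labelled library, where RPM-like cells came next at 12.6 (11.0 to 14.4) CPM from 213 UMIs. In the SCD-labelled library the Cd209a-led cluster was at 3.92 (2.83 to 5.30) CPM, RPM-like cells at 3.69 (2.45 to 5.33) CPM and Ly6c-high monocyte-like cells at 6.82 (4.63 to 9.68) CPM. Nearly all neighbours in the order of C3ar1 levels had overlapping intervals, 16 of 17 steps and 17 of 17 steps, so most neighbours in that order could not be told apart at this depth.

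Vsig4 was low in every class, although the protein is known from tissue macrophages such as those of the liver. RPM-like cells held 11.8 (10.2 to 13.5) CPM from 199 UMIs and 7.25 (5.46 to 9.44) CPM from 55 UMIs, and EBI-like cells 11.6 (10.5 to 12.8) and 2.45 (1.18 to 4.504) CPM. The B cell reference held 3 and 6 UMIs, or 2.08 and 1.01 CPM, which put RPM-like cells at 5.67-fold (1.91 to 27.7) and 7.17-fold (3.09 to 20.4). After thinning, 1.04% and 1.001% of RPM-like cells held a Vsig4 UMI. In all 17 steps of the order of Vsig4 levels the neighbouring intervals overlapped, in both libraries.

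Counts of members past 2-fold over the reference are a description, since a gene could reach the required 100 UMIs through the class in which it was high, as C3, C3ar1, C5ar1 and Vsig4 did. Of the 8 members, 7 had 100 UMIs or more over RPM-like cells and the reference, and all 7 were at least 2-fold above the B cell reference in both libraries, beside 15.8% of the 10718 genes so tested. C5ar1 did not reach that number of UMIs in RPM-like cells. In Ly6c-low monocyte-like cells the count was 6 of 6 members (the C1q chains, C3, C5ar1 and Cfp) beside 13.2% of genes, with C3ar1 and Vsig4 below the required UMIs. The RPM markers of these cells were themselves at 3.23 and 3.11 times the reference. The folds of the C1q chains and of Cfp lay under that marker fold in both libraries, and those of C3 and C5ar1 lay above it. In Ly6c-high monocyte-like cells 2 of 6 members, C3 and C5ar1, passed beside 11.7% of genes, and in cDC2-like cells 1 of 4 members, Cfp, beside 10.1%. Between the libraries, RPM-like cells had 1 of 7 members at least 2-fold lower in the SCD-labelled library, C3ar1, with a log2 ratio of -1.77 (-2.40 to -1.20), beside 4.23% of 10004 genes. Its ratio in the B cell reference was -2.45 (-5.22 to 0.11), from 4 and 3 UMIs. The member at least 2-fold higher was C3, beside 9.02% of genes. C5ar1 was at -0.43 (-1.22 to 0.30) and Vsig4 at -0.70 (-1.16 to -0.26). Over all kept cells 4 of the 8 members were at least 2-fold lower, beside 9.78% of 13015 genes. They were C1qa at -1.11, C1qb at -1.31, C3ar1 at -1.91 (-2.17 to -1.65) and Vsig4 at -2.01 (-2.28 to -1.74). None was at least 2-fold higher, where 12% of genes were. C1qc at -0.61, Cfp at -0.47, C3 at -0.18 and C5ar1 at 0.11 (-0.05 to 0.28) stayed within 2-fold. In the wild-type-labelled library C1qa, C1qb and Vsig4 had their highest levels in RPM-like cells and C3ar1 in the Cd209a-led cluster. C1qc and Cfp, which stayed within 2-fold, were also highest in RPM-like cells of that library. RPM-like and EBI-like cells were 55.9% of the kept cells in the wild-type-labelled library and 21.1% in the SCD-labelled library. Whether these shares bear on the ratios was not tested.

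**Figure D4:**
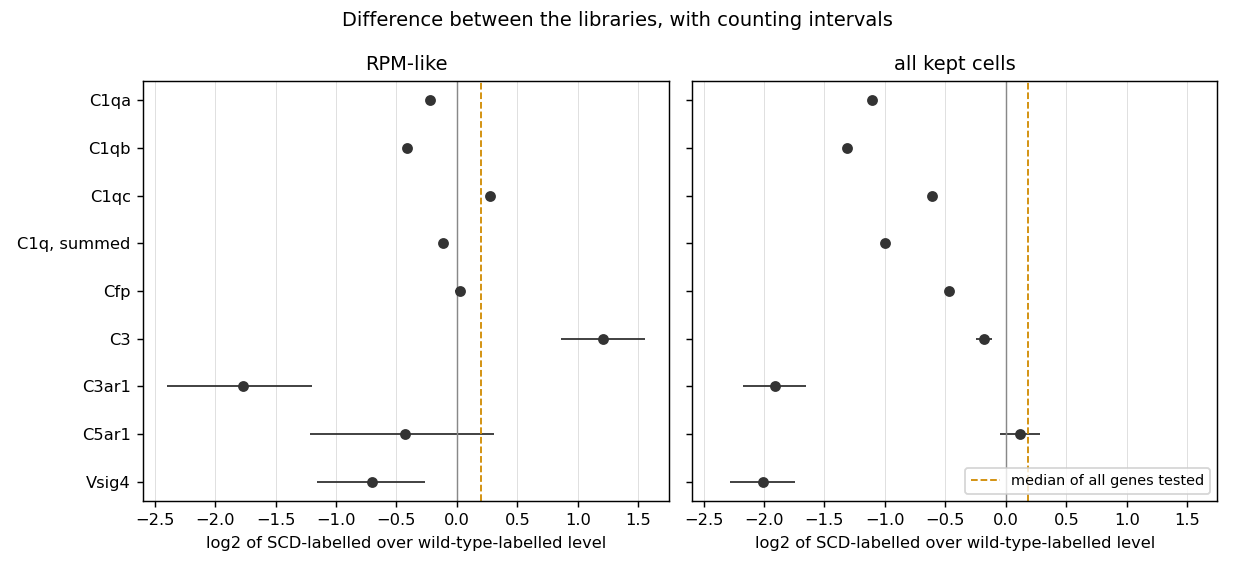
Log2 ratio of the SCD-labelled to the wild-type-labelled level of each member in RPM-like cells (left) and all kept cells (right), with 95% exact intervals for counting error, 1 library per label; the dashed line is the median of all genes tested, 0.20 and 0.18. Summed C1q lies at -0.12 on the left and at -0.999 on the right, C3 at 1.21 on the left, and C3ar1 at -1.77 and -1.91.

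The wider complement list held 45 genes found in the files, of which 16 had at least 100 UMIs in RPM-like cells. Of these, 6 were at least 2-fold higher in the SCD-labelled library (C2, C6, Cd55, Itgam, Itgax and C5ar2) and 2 at least 2-fold lower (Colec12 and Cd59a), beside 9.02% and 4.23% of all genes, with a median log2 ratio of 0.15 beside 0.20 over all genes tested. Fcna, the gene of ficolin A, a lectin that starts complement activation, held 2340 and 1369 CPM in the RPM-like class, against 337.9 and 117.2 CPM in the B cell reference. C6, a component of the membrane attack complex, reached 238.3 and 575.5 CPM in the RPM-like class, with 36.0 and 44.3 CPM in the reference. Its log2 ratio between the libraries was 1.27 (1.21 to 1.33). C2, which supplies the protease of the classical C3-cleaving enzyme, was at 9.88 and 43.9 CPM, and Colec12, a collectin receptor, at 14.1 and 1.71 CPM. Itgam and Itgax, the α-chains of complement receptors, were low in RPM-like cells at 4.79 and 12.0 CPM and at 11.2 and 26.1 CPM, the former under the 18.0 and 26.3 CPM of the B cell reference, whereas Itgax held 293.8 and 309.4 CPM in cDC2-like cells. Genes that protect cells from complement differed in direction. Cd55, which speeds the decay of the C3-cleaving enzymes, stood at 11.3 and 58.7 CPM in the RPM-like class. The B cell reference was itself high in Cd55, at 413.3 and 537.3 CPM, so it is no background for this gene. Cd55 was at 3.87 and 7.45 CPM in cDC2-like cells and at 42.1 and 52.3 CPM in erythroid-like cells. Cd59a, which blocks the membrane attack complex, stood at 34.9 and 5.80 CPM in the RPM-like class, while erythroid-like cells had 92.7 and 80.0 CPM and the reference 3.46 and 1.52 CPM. Cd93, first described as a C1q receptor, held 312.9 and 689.7 CPM in Ly6c-high monocyte-like cells. Among the other list genes with a class at 50 CPM or more, Cr2, the B cell receptor for C3d, was at 711 and 818.9 CPM in the B cell reference, and Fcnb, ficolin B, at 720.2 CPM in wild-type-labelled neutrophil-like cells. C5ar2, the other receptor of C5a, reached 26.85 and 56.0 CPM in the RPM-like class, beside 50.75 and 66.75 CPM in cDC2-like cells. Lrp1 and Calr, whose products act with C1q in the uptake of dying cells, were at 655.8 and 547.4 CPM and at 626.9 and 613.3 CPM in RPM-like cells, Itgb2 at 249 and 313.3 CPM, C1qbp at 90.3 and 73.55 CPM and Cr1l at 54.1 and 78.3 CPM. Over all kept cells 25 list genes were tested, with 6 at least 2-fold higher and 5 at least 2-fold lower beside 12% and 9.78% of all genes, and a median of 0.24 beside 0.18.

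The genes most like each member were sought over 44 points of cluster and library with at least 50 cells, by Pearson's r of log2(CPM + 1). These points share libraries, depth and free RNA, so r is a description. Summed C1q ran most closely with Axl (0.998), Mrc1 (0.997) and Vcam1 (0.996), of which Axl and Vcam1 are RPM markers. Cfp was nearest to Paox (0.956), Ckb (0.895) and Hsd17b12 (0.889), and Vsig4 to Tpp1 (0.926), Slc7a8 (0.922) and Cndp2 (0.921). C3 was nearest to Pi16 (0.91), Clec5a (0.899) and Cd177 (0.894). The receptors had looser partners, with C5ar1 nearest to Msrb1 (0.836), Trem3 (0.814) and Plaur (0.806) and C3ar1 to Ltc4s (0.777), Ang (0.766) and Wfdc17 (0.759). The partners were picked for their likeness to each member over these points, so they give no separate support for the class in which it was high.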

How the data were processed

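Spleen cells of 1 mouse per label were enriched with anti-F4/80 beads and sequenced as 2 droplet 3′ libraries. The authors deposited unnormalised UMI counts per gene and barcode, made with Cell Ranger on GRCm38 (the submitters' notes name version 4.0.0 and the matrix header 3.1.0). Totals were 145953464 UMIs over 24144 barcodes (wild-type-labelled) and 73986356 over 15442 (SCD-labelled).

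Cells needed 500 to 5000 detected genes, with mitochondrial genes below 15% and ribosomal-protein genes below 30% of UMIs. Counts were scaled with scran 1.30.0 (R 4.3.3) and clustered in scanpy 1.11.5 on 2000 variable genes, 30 components, 15 neighbours and Leiden resolution 1, without the complement, heme and iron, hemoglobin and sex-linked genes. Of 26 clusters, 19 were named from fixed markers and 7 were not; the limits of the naming rule (RPM markers at 4 times and erythroid markers at 2 times the B cell reference, other markers at 2 times the rest, at least 3 markers) date from after a trial clustering was inspected. Scrublet doublets, 1942 (the highest-scoring 10%, as its automatic threshold marked 0) and 1723, stayed in.

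Levels are UMIs summed per class over all UMIs of the class, times 1000000. Intervals are 95% exact (Poisson for levels, Clopper-Pearson for shares, conditional binomial for ratios). A count of 0 allows 3 counts. Shares of cells were taken after thinning to 1000 UMIs. Genes needed 100 UMIs to be counted past 2-fold. All members were named, as were list genes with a class at 50 CPM or more and the 3 genes most like each member, except for 1 list gene that is not reported here. Motifs were sought on both strands of RefSeq promoters. Scripts were tested on simulated data. The members and lists were chosen with earlier results of these data known. The alternatives are those of the closing section; the 2 settings without doublets in fixed clusters and without the shallow RPM-like cluster were chosen after seeing the data.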

Additional observations from a re-analysis of the deposited data

How the results depend on the processing

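With 1 library per label the spread between mice is unknown, the β-globin genes went against the labels, and RPM-like clusters were nearly exclusive to one library. Free RNA was read from the B cell reference, which was not a floor for every class. C1q in cDC2-like cells of the main clustering lay under it, at 687.3 and 499.9 CPM. No paired analysis was possible because the labels compared have 1 library each and no result comes from a test. The 17 settings gave 448 alternative values of 57 results. Of these, 288 stayed within the counting interval or, for shares and counts of genes past 2-fold, within a fixed factor. A further 15 changed sign where the reported interval excluded 0, and 145 moved in another way. Changes of sign in results whose interval held 0 are counted among the 288 and the 145. The log2 ratio of summed C1q in RPM-like cells, -0.12 in the report, was -0.14 with cells of at least 200 genes, -0.31 with each library clustered alone, -0.14 without hemoglobin, immunoglobulin and mitochondrial genes in the total, -0.39 with scran-scaled sums, -0.21 as a mean over cells, -0.023 after subtraction of the B cell reference, -0.068 without the shallow RPM-like cluster and 0.024 with RPM-like and EBI-like cells as 1 class. That of all kept cells, -0.999, was -1.08 without doublets, also in the fixed clusters, -1.29 with scran-scaled sums, -1.13 as a mean over cells and -1.09 after subtraction. The difference in the C1qc share, 7.605 percentage points, was 5.964 without the shallow cluster. The cause of these moves was not tested. C1q of cDC2-like cells was below the B cell reference in the report (log2 fold -0.66 and -0.33) but above it in the wild-type-labelled library with 200 genes (1.10), without doublets (0.99), with total-count scaling (0.56), at resolution 0.5 (1.33) and 2 (0.74) and clustered alone (0.99), and in the SCD-labelled library with 200 genes (0.56), total-count scaling (0.0026), resolution 0.5 (0.65) and all genes (0.57). Its ratio between libraries, -0.46, became 0.81 with all genes in the clustering. The C3 ratio of Ly6c-low monocyte-like cells, 0.55, was -0.36 with total-count scaling and -0.21 at resolution 2, and that of Ly6c-high monocyte-like cells, -0.20, was 0.25 with all genes. The ratio of C1q in Ly6c-high monocyte-like cells, -2.20, ranged from -2.24 to -1.06, and that in Ly6c-low ones, -0.72, from -1.54 to -0.53. In RPM-like cells C3 ranged from 0.72 to 1.93 and C3ar1 from -2.33 to -1.43 on the log2 scale. With a minimum of 20 UMIs, 6.29% of genes were lower and 12.7% higher in RPM-like cells, as were 3 and 10 genes of the complement list.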

Other observations

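Barcodes outside the kept cells also carried complement RNA. The 1374 barcodes of the wild-type-labelled library with fewer than 500 genes held C1q at 2522 (2432 to 2615) CPM, and the 2097 of the SCD-labelled library held 1156 (1108 to 1205) CPM. Cfp was there at 259.1 and 144 CPM and C3 at 5.15 and 12.1 CPM. The barcodes removed for another reason, 3352 and 1066 in number, held C1q at 3515 and 2349 CPM. All removed barcodes together carried 24.6% and 13.3% of the C1q UMIs of their library, and 14.5% and 7.52% of its C3 UMIs.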
